A study of Danio rerio with 6 samples.

Results

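Night was set against day in a mixture of 8 organs of adult zebrafish, for which equal amounts of total RNA from brain, gill, heart, intestine, kidney, liver, muscle and ovary were combined. All genes of the deposited table with at least 5 FPKM (read number scaled to gene length and library size) in the higher of the 2 mixed libraries were compared, which were 13055 of 32105 genes. All fish were 0.5 to 1.5 years old, carried the transgene Tg(aanat2:EGFP), in which the control region of aanat2 drives a green fluorescent protein in the pineal gland, and lived under a cycle of 12 h light and 12 h dark. The groups used here were mixed organs at night (18 h after lights came on, ZT18), mixed organs at day (6 h after lights came on, ZT6), whole eyes at night and at day, and pineal glands at night and at day.

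Each of the 6 libraries was a single pool, of 4 to 8 of each organ in the mixed libraries, 6 eyes or 18 pineal glands. The mixed night library held 15950819 reads and the mixed day library 15708307. There was 1 library for each tissue and time point, so no spread between replicates can be given, differences are described by size only, and no p-value is given. The night and day pools came from different fish. The labels do not say whether the organ shares, set as equal amounts of RNA, were measured afterwards. Time of day therefore cannot be told apart from differences between the pooled fish or between the organ shares of the 2 pools. A lower level in such a pool can come from fewer cells of a type or from less RNA per cell, and these cannot be told apart either.

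In zebrafish most organs hold their own circadian clock, and light can set the clock of an organ directly. In vertebrates the proteins CLOCK and BMAL switch on per and cry genes, whose products then act against CLOCK and BMAL. Another loop acts on the bmal genes, through ROR receptors that activate and NR1D (REV-ERB) receptors that repress. Further rhythms run through a DNA element called the D-box, where DBP, TEF and HLF activate and NFIL3 proteins repress.

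Levels in the 2 mixed libraries were close for most genes. A difference here is night minus day on log2(FPKM + 1), a scale that understates the change of genes near 0. The median difference over the 13055 genes was 0.03, the 25th and 75th percentiles were -0.17 and 0.19, and 7037 (53.9%) were above 0. At least a 2-fold difference was found for 444 genes, or 3.4%. Of these, 102 were higher at night, which is 0.781% of the genes compared, and 342 were lower at night, which is 2.62%. At least a 4-fold difference was found for 23 higher and 52 lower genes. Many of the genes with a 2-fold difference had under 5 FPKM in the library with the lower level, 67 of the 102 and 189 of the 342, so they entered the comparison only through the library where they were high. The reads behind the FPKM values could be recovered, and the library with the higher level held a median of 509 reads for these 444 genes and at least 5. The 95% interval on the night to day ratio, which covers counting error only, included 1 for 4 of them. At the edge of the filter, EVA1C (ENSDARG00000056024) was kept with 4.78 FPKM at night and 5.0006 FPKM at day, and MARVELD3 (ENSDARG00000099654) was left out with 4.998 FPKM at night and 3.83 FPKM at day.

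**Figure D1:**
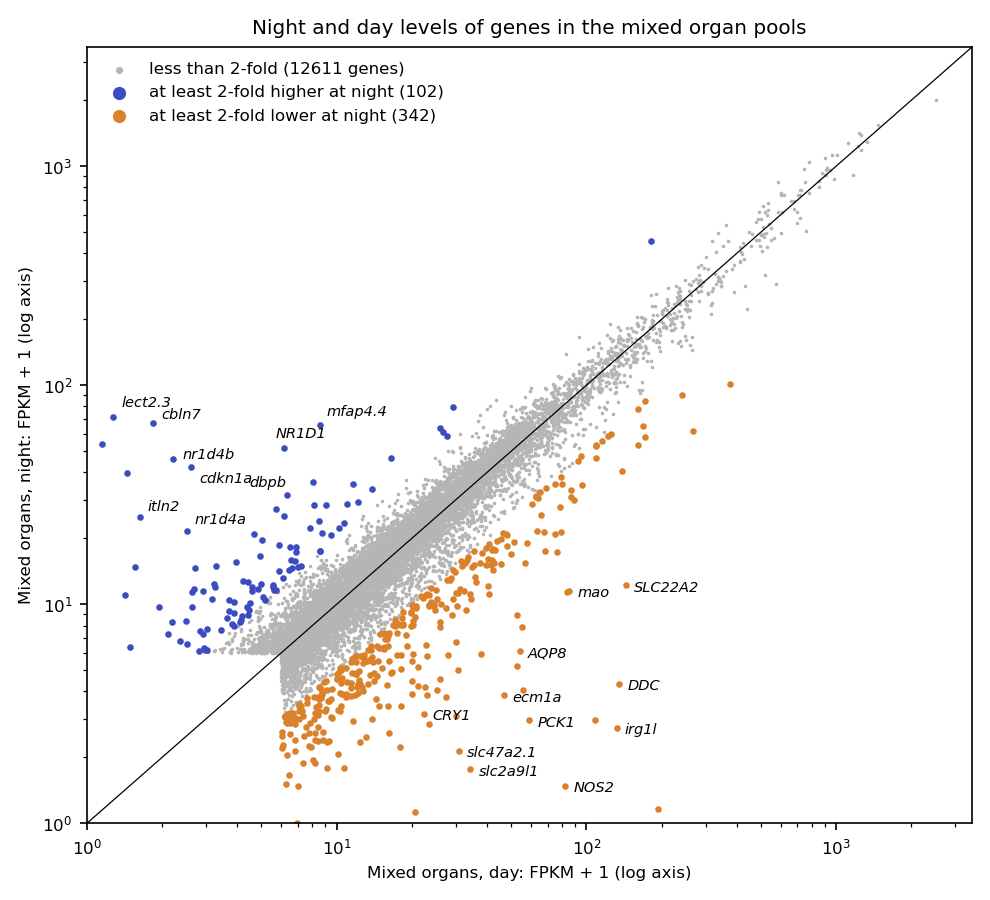
FPKM + 1 of each of the 13055 genes in the mixed organs at night (vertical, log axis) and at day (horizontal, log axis). The 102 genes at least 2-fold higher at night are blue, the 342 at least 2-fold lower at night are orange, and most others lie along the line of equal levels. The flat lower edge on the left and the upright edge at the bottom come from the filter of 5 FPKM.

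The NR1D receptors, which repress clock genes, stood among the largest night levels relative to day. nr1d4b (ENSDARG00000059370) had 45.3 FPKM at night and 1.2 FPKM at day in mixed organs, 357 and 0.911 FPKM in the eye, and 86.8 and 0.656 FPKM in the pineal gland. All 3 night libraries were far above all 3 day libraries, and the mixed organs had the smallest step. The ratio in mixed organs was 37.6 (95% counting interval 28.2 to 51.4). nr1d4a (ENSDARG00000031161), its duplicate by name, had 20.7 FPKM at night and 1.51 FPKM at day in mixed organs, a difference of 3.11. NR1D1 (ENSDARG00000033160) had 50.5 FPKM at night and 5.13 FPKM at day, a ratio of 9.83 (8.59 to 11.3). The other NR1D genes did not share this. NR1D2 (ENSDARG00000009594) had 26.9 FPKM at night and 26.7 FPKM at day, and nr1d2a (ENSDARG00000003820) had 50.4 FPKM at night and 58.4 FPKM at day.

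Of 5 listed genes for ROR receptors, which act on the same DNA elements in the other direction, 3 passed the filter and each was at least 2-fold lower at night. rorcb (ENSDARG00000017780) had 1.38 FPKM at night and 8.32 FPKM at day in mixed organs, with differences of -1.97 in mixed organs, -6.38 in the eye and -4.26 in the pineal gland. rorab (ENSDARG00000001910) differed by -1.54 and rorca (ENSDARG00000057231) by -1.24 in mixed organs. Both were also over 2-fold lower at night in the eye and the pineal gland. RORA (ENSDARG00000031768), with 3.63 FPKM at night and 3.53 FPKM at day, and RORB (ENSDARG00000033498), with 0.983 FPKM at night and 1.08 FPKM at day, did not pass the filter and were level. The bmal genes, targets of these receptors, moved much less in mixed organs. BMAL1 (ENSDARG00000006791) had 28.1 FPKM at night and 28.8 FPKM at day, a ratio of 0.976 (0.896 to 1.06), while its difference was -2.82 in the eye and -1.93 in the pineal gland. The other gene with the symbol BMAL1 (ENSDARG00000035732) had 3.44 FPKM at night and 5.99 FPKM at day, and bmal2 (ENSDARG00000041381) had 8.00 FPKM at night and 5.54 FPKM at day. CLOCK (ENSDARG00000003631) had 4.70 FPKM at night and 6.03 FPKM at day. Of 11 listed activators, 7 passed the filter, 4 of them only through the day library, rorcb and rorab included. Of the 7, 3 (42.9%, against 2.62% of all genes compared) were at least 2-fold lower and none was 2-fold higher. The median difference of the 7 was -0.65.

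Among the per and cry genes, those of day were the larger group. CRY1 (ENSDARG00000045768) had 2.15 FPKM at night and 21.5 FPKM at day in mixed organs, 5.78 and 93.0 FPKM in the eye, and 7.05 and 95.4 FPKM in the pineal gland. For this gene the 3 tissues were alike in direction and close in size, with a ratio of 0.10 (0.0819 to 0.121) in mixed organs. The other gene with the symbol CRY1 (ENSDARG00000011583) had 14.4 FPKM at night and 20.3 FPKM at day in mixed organs. Its difference was -0.46 there, against -3.61 in the eye and -2.99 in the pineal gland. PER3 (ENSDARG00000010519) had 2.3 FPKM at night and 9.09 FPKM at day. cry3a (ENSDARG00000069074) had 28.9 FPKM at night and 88.6 FPKM at day, and cry3b (ENSDARG00000091131) 5.28 FPKM at night and 14.5 FPKM at day. PER2 (ENSDARG00000034503), a gene that light switches on in zebrafish, had 7.16 FPKM at night and 14.7 FPKM at day and stayed just short of 2-fold on this scale, at -0.94, against -4.70 in the eye and -2.44 in the pineal gland. Only 1 per gene was 2-fold higher at night. It was PER1 (ENSDARG00000056885), with 5.18 FPKM at night and 2.04 FPKM at day, while the other gene with that symbol (ENSDARG00000012499) had 7.17 FPKM at night and 9.75 FPKM at day. BHLHE40 (ENSDARG00000004060), a repressor of CLOCK and BMAL targets, had 18.8 FPKM at night and 44.6 FPKM at day, while its relative BHLHE41 (ENSDARG00000041691) had 21.3 FPKM at night and 15.1 FPKM at day. All 19 listed repressors passed the filter, 5 of them through 1 of the 2 libraries only. Of the 19, 4 (21.1%, against 0.781% of all genes) were at least 2-fold higher and 5 (26.3%, against 2.62%) at least 2-fold lower. The median difference of the 19 was -0.21.

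The D-box genes went both ways, and neither the activators nor the repressors moved as 1 group. dbpb (ENSDARG00000057652), an activator, had 30.6 FPKM at night and 5.35 FPKM at day, a ratio of 5.72 (5.16 to 6.34). dbpa (ENSDARG00000063014) had 9.45 FPKM at night and 2.70 FPKM at day. The repressors nfil3-6 (ENSDARG00000087188) and nfil3-5 (ENSDARG00000094965) were 2-fold lower at night. nfil3-6 had 20.5 FPKM at night and 78.5 FPKM at day, and nfil3-5 had 8.41 FPKM at night and 32.1 FPKM at day. A further repressor, NFIL3 (ENSDARG00000042977), had 6.31 FPKM at night and 6.77 FPKM at day. The activator tefa (ENSDARG00000039117) had 50.6 FPKM at night and 38.0 FPKM at day, a ratio of 1.33 (1.25 to 1.42), and tefb (ENSDARG00000098103) had 24.5 FPKM at night and 23.2 FPKM at day. Other activators ran the other way, HLF (ENSDARG00000061011) with 2.17 FPKM at night and 5.51 FPKM at day and hlfa (ENSDARG00000074752) with 18.3 FPKM at night and 28.1 FPKM at day. Of the 18 listed genes of the D-box and of clock regulation, 15 passed the filter, 3 of them through 1 of the 2 libraries only. Of the 15, 2 (13.3%, against 0.781% of all genes) were at least 2-fold higher and 3 (20%, against 2.62%) at least 2-fold lower. The median difference was 0.04, which turned to -0.02 with a filter of 1 FPKM and -0.03 with none.

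Clock genes had smaller day and night differences in mixed organs than in the eye or the pineal gland. Of 48 listed clock genes, 40 had at least 5 FPKM in the higher library of each of the 3 tissues. The median size of the difference, whatever its sign, was 0.77 in mixed organs, 2.67 in the eye and 1.81 in the pineal gland. For 31 of the 40 genes the size in mixed organs was below that in both other tissues. The sign in mixed organs was that of the eye for 37 of the 40 and that of the pineal gland for 34. The labels do not say whether the eyes, pineal glands and organs came from the same fish.

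**Figure D2:**
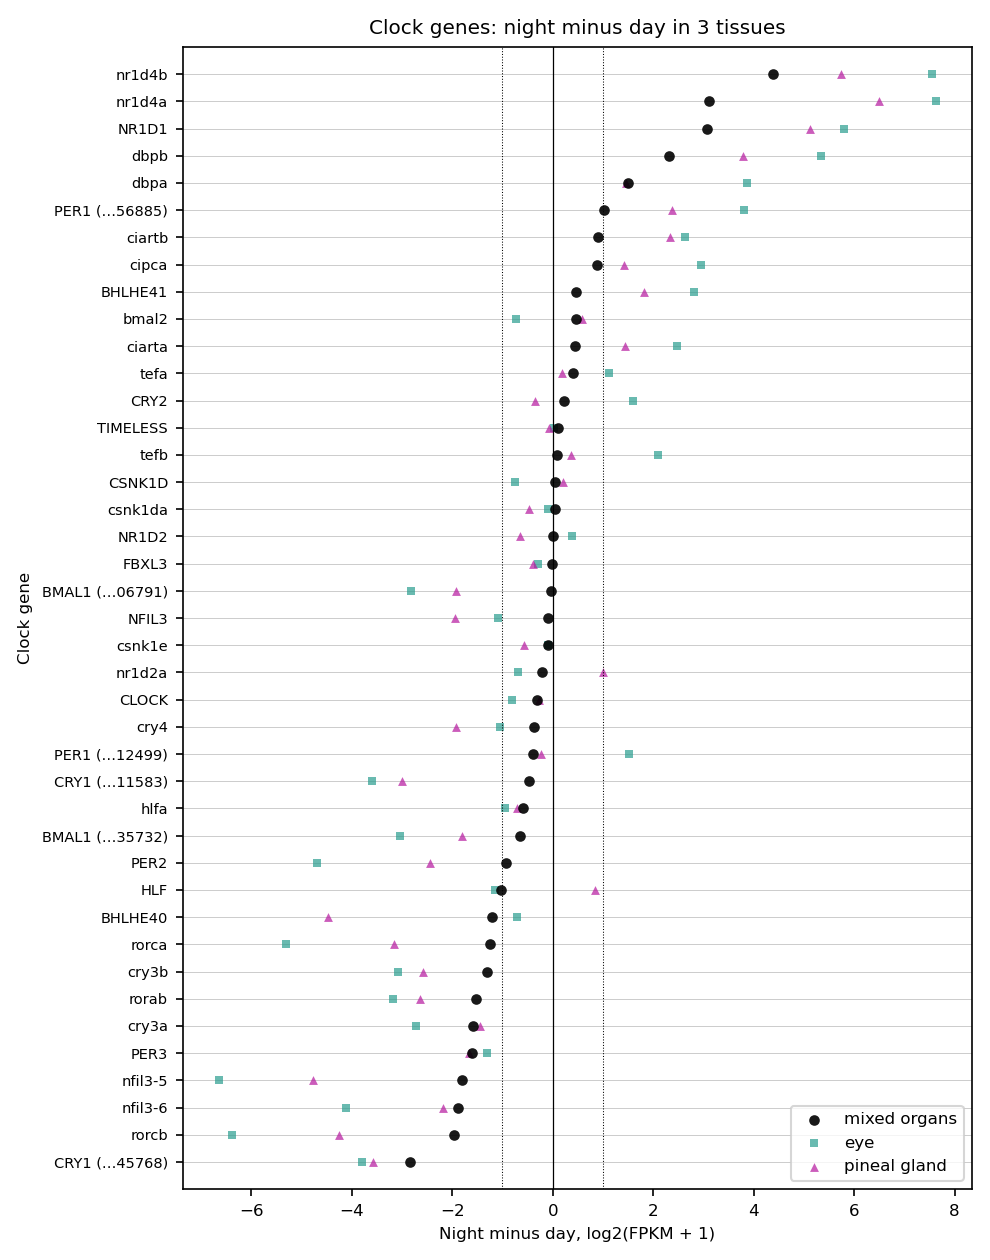
Night minus day on log2(FPKM + 1) for the 41 clock genes that passed the filter in mixed organs, ordered by the mixed organs (black circles), with the eye (green squares) and the pineal gland (purple triangles). Points right of 0 are higher at night. The mixed organs mostly lie nearer to 0 than the other tissues, and dotted lines mark a 2-fold difference.

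The genes with a 2-fold difference in mixed organs, clock genes included, could be followed in the other tissues only where they were expressed there. Of the 102 higher genes, 74 (72.5%) were under 5 FPKM in all eye and pineal libraries, as were 182 (53.2%) of the 342 lower genes, against 22.3% of all genes compared. Of the 23 higher genes that reached 5 FPKM in the eye, 12 (52.2%) were also 2-fold higher at night there, against 3.67% of the 9446 genes that reached it in both tissues and 5.89% of all 12735 genes compared in the eye. In the pineal gland this was 9 of 22 (40.9%), against 1.66% of 9229 genes and 2.38% of all 11753 genes compared there. For the lower genes it was 65 of 139 (46.8%) in the eye, against 4.36% of the 9446 genes and 5.36% of all compared there, and 31 of 112 (27.7%) in the pineal gland, against 2.61% of the 9229 genes and 2.96% of all compared there. The 12 and 9 genes were 1.6% and 3.21% of the genes 2-fold higher in the eye and in the pineal gland, and the 65 and 31 genes were 9.52% and 8.91% of those 2-fold lower there.

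At least 2-fold in 1 direction in all 3 tissues were 8 higher genes, 0.0938% of 8528 genes compared in all 3, and 16 lower genes, 0.188%. The 8 were NR1D1, nr1d4a, nr1d4b, dbpa, dbpb, PER1 (ENSDARG00000056885), cdkn1a and a gene without a symbol in the table used (ENSDARG00000090424). cdkn1a (ENSDARG00000076554), an inhibitor of the cell cycle, had 41.5 FPKM at night and 1.62 FPKM at day in mixed organs, 47.0 and 3.33 FPKM in the eye, and 129 and 3.34 FPKM in the pineal gland. Every night library was over 10 times its day library. None of the other 12 listed cell cycle inhibitors that passed the filter had a 2-fold difference, against 3.4% of all genes. The median of the 13 was 0.01, or -0.02 after rescaling by the median ratio. Of the 16 lower genes, 9 were clock genes described above, namely CRY1 (ENSDARG00000045768), PER3, cry3a, cry3b, rorab, rorca, rorcb, nfil3-5 and nfil3-6. The others were DHRS13, aste1a, RBP4, gsto1, bco2l, sult1st6 and TIMP4. RBP4 (ENSDARG00000101199), the carrier of vitamin A in blood, had 39.5 FPKM at night and 137 FPKM at day in mixed organs, 22.2 and 97.0 FPKM in the eye, and 137 and 503 FPKM in the pineal gland. bco2l (ENSDARG00000027620), by its name related to an enzyme that cleaves carotenoids, had 1.88 FPKM at night and 5.33 FPKM at day. DHRS13 (ENSDARG00000098746), a member of the short-chain dehydrogenases, had 3.18 FPKM at night and 21.5 FPKM at day.

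Apart from the clock genes and cdkn1a, the named genes with the largest night levels relative to day were almost silent in the eye and the pineal gland. lect2.3 (ENSDARG00000086483), of a family of secreted liver proteins, had 70.4 FPKM at night and 0.269 FPKM at day, from 1064 and 4 reads, and was at 0 in all eye and pineal libraries. cbln7 (ENSDARG00000095040), of the cerebellin family, had 66.3 FPKM at night and 0.842 FPKM at day. itln2 (ENSDARG00000036084), of the intelectins that bind sugars of microbes, had 24.0 FPKM at night and 0.626 FPKM at day. These genes were thus close to undetected in 1 of the 2 pools. Other genes, enzyme genes among them, followed with smaller steps. The alkaline phosphatase ALPP (ENSDARG00000053774) had 24.3 FPKM at night and 5.17 FPKM at day, a ratio of 4.70 (4.05 to 5.49), and the carboxypeptidase cpo (ENSDARG00000077688) had 14.6 FPKM at night and 2.97 FPKM at day. UNC93A (ENSDARG00000041554) had 10.3 FPKM at night and 1.63 FPKM at day, and the carbonic anhydrase gene ca4b (ENSDARG00000042293) had 17.6 FPKM at night and 4.89 FPKM at day. Beside them, genes with clone names reached the same size. They were chosen after their values were seen. si:ch211-66i15.5 (ENSDARG00000097446) had 52.7 FPKM at night and 0.146 FPKM at day, and si:ch211-194p6.8 (ENSDARG00000093796) had 38.6 FPKM at night and 0.442 FPKM at day.

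The genes with the lowest night levels relative to day were well expressed in the day pool, which follows from how they were chosen. A large fall on log2(FPKM + 1) needs a high day level. NOS2 (ENSDARG00000026925), the inducible nitric oxide synthase, had 0.484 FPKM at night and 81.3 FPKM at day in mixed organs, 0.683 and 6.18 FPKM in the eye, and 0.0303 and 4.54 FPKM in the pineal gland. The night level was the lower one in each tissue. irg1l (ENSDARG00000062788), by its name related to an immune response gene, had 1.72 FPKM at night and 131 FPKM at day. DDC (ENSDARG00000016494), the decarboxylase that makes dopamine and serotonin, had 3.33 FPKM at night and 134 FPKM at day, a ratio of 0.0249 (0.0217 to 0.0283). mao (ENSDARG00000023712), the monoamine oxidase that breaks such amines down, had 10.5 FPKM at night and 84.5 FPKM at day. Both genes were thus low in the same pool, mao with a difference of -2.89. zgc:158427 (ENSDARG00000068372), a gene with a clone name that was chosen after its values were seen, had the lowest difference of all 13055 genes, -7.37, from 8 reads at night and 9193 at day.

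**Figure D3:**
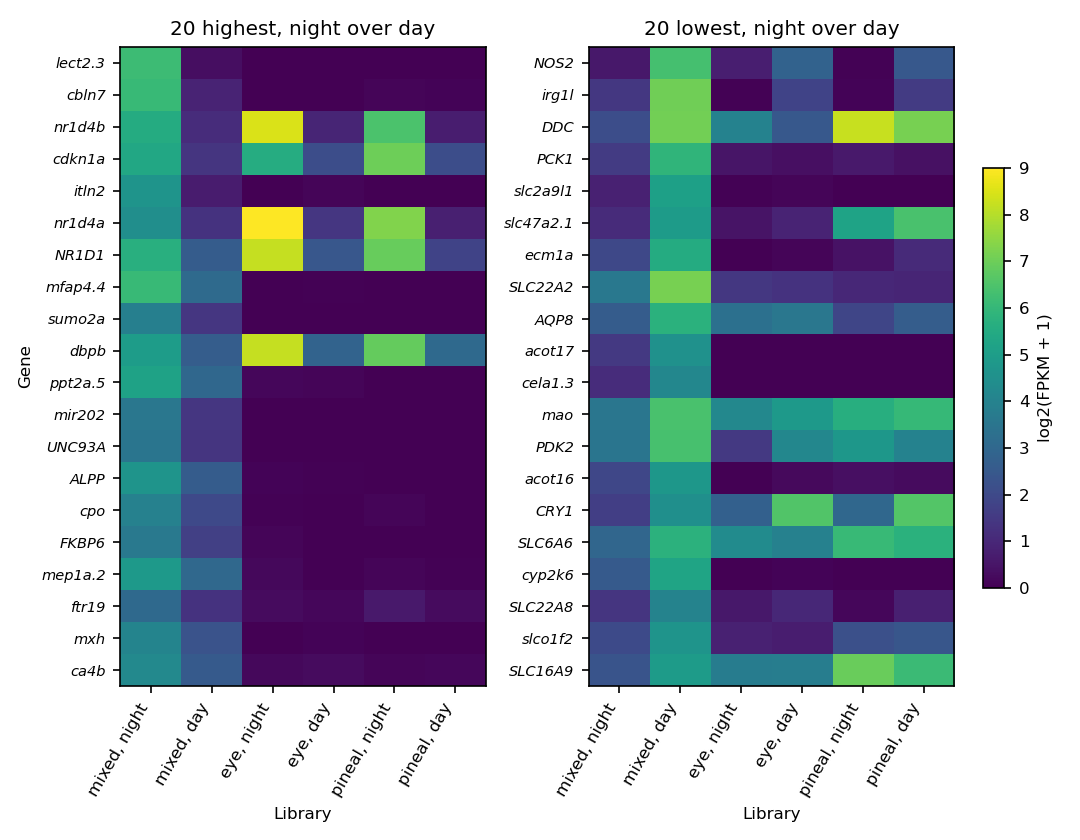
Log2(FPKM + 1) in all 6 libraries, with night left of day in each tissue, for the 20 named genes highest at night relative to day in mixed organs (left panel) and the 20 lowest (right panel). Apart from clock genes and cdkn1a, most genes of the left panel are dark, near 0 FPKM, in the eye and the pineal gland. DDC, mao and several carriers of the right panel are expressed in the pineal gland at both times.

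Carriers of small molecules among the 20 lowest named genes are given here together, a grouping made after their values were seen and not tested. SLC22A2 (ENSDARG00000030530), a transporter of organic cations in the kidney tubule, had 11.2 FPKM at night and 143 FPKM at day, a ratio of 0.0783 (0.0714 to 0.0857). slc47a2.1 (ENSDARG00000060051), of the family that exports such cations, had 1.14 FPKM at night and 29.9 FPKM at day. SLC22A8 (ENSDARG00000055523), a transporter of organic anions, had 1.59 FPKM at night and 15.2 FPKM at day. The others were slc2a9l1 (difference -4.28), slco1f2 (-2.63), the taurine carrier SLC6A6 (ENSDARG00000012534, -2.81) and SLC16A9 (-2.62), with the water channel AQP8 (ENSDARG00000045141, -3.14) beside them. Beside these stand the kidney markers. All 22 of 31 listed kidney genes that passed the filter were below 0, from -3.56 to -0.02, with a median of -0.86. Of the 22, 9 (40.9%, against 2.62% of all genes compared) were at least 2-fold lower, and 5 passed through 1 of the 2 libraries only. The summed level of the 31 genes was 358 FPKM at night and 737 FPKM at day, a ratio of 0.486, and none was at 0 in both pools. SLC22A2 itself is on that list. The carriers SLC12A1 (ENSDARG00000098096) and SLC12A3 (ENSDARG00000013855), which take up salt in the distal tubule in mammals, had ratios of 0.409 (0.351 to 0.476) and 0.489 (0.463 to 0.517). PAX2 (ENSDARG00000028148), a transcription factor gene of kidney development, had 5.49 FPKM at night and 5.56 FPKM at day. The part of the kidney share in the levels of the carriers was not tested.

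Genes of glucose output were led by those of the last and the committing steps of gluconeogenesis. PCK1 (ENSDARG00000013522), the phosphoenolpyruvate carboxykinase, had 1.95 FPKM at night and 58.2 FPKM at day, a ratio of 0.0335 (0.0268 to 0.0413). g6pc1a.1 (ENSDARG00000031616), a glucose-6-phosphatase, had 2.45 FPKM at night and 15.1 FPKM at day, a ratio of 0.162 (0.119 to 0.217). Both genes were low in the night pool, and neither reached 5 FPKM in the eye or the pineal gland. fbp1a (ENSDARG00000021366), of the step between them, had a ratio of 1.09 (0.916 to 1.29). Of 20 genes of glucose output and glycogen that passed the filter, 3 (15%, against 2.62% of all genes) were 2-fold lower and none 2-fold higher. PCK1 and g6pc1a.1 were among the 3, and both passed through the day library only. The median of the 20 was -0.31. UGP2 (ENSDARG00000008200), which makes the precursor of glycogen, was the highest of them at 0.53. Of 33 glycolysis genes, none had a 2-fold difference (against 3.4% of all genes), 30 were below 0 and the median was -0.22.

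Genes that break down amino acids were mostly lower at night. Of 31 that passed the filter, 3 of them through 1 of the 2 libraries only, 28 were below 0, with a median of -0.60. Of the 31, 4 (12.9%, against 2.62% of all genes) were at least 2-fold lower and none 2-fold higher. OAT (ENSDARG00000078425), the ornithine aminotransferase, had 1.35 FPKM at night and 8.14 FPKM at day. tdo2b (ENSDARG00000023176), of tryptophan breakdown, had 14.9 FPKM at night and 40.8 FPKM at day, and TDO2 (ENSDARG00000071429) had 17.8 FPKM at night and 35.5 FPKM at day. AGXT (ENSDARG00000018478), which removes glyoxylate in the liver, had 16.9 FPKM at night and 41.2 FPKM at day. CBS (ENSDARG00000053500), of cysteine synthesis, was the highest of the list at 0.38.

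Fat and sterol genes gave a mixed picture. Of 31 genes of fatty acid use that passed the filter, 4 (12.9%, against 2.62% of all genes) were 2-fold lower. Of the 31, 27 were below 0, with a median of -0.30, and 1 passed through 1 of the 2 libraries only. PDK2 (ENSDARG00000059054), a kinase that holds back the use of glucose in mitochondria, had 10.4 FPKM at night and 82.5 FPKM at day in mixed organs, 1.83 and 17.0 FPKM in the eye, and 25.9 and 14.9 FPKM in the pineal gland. The pineal gland was thus the only one of the 3 tissues with the higher level at night. The carnitine palmitoyltransferase CPT1B (ENSDARG00000058285) had 16.8 FPKM at night and 40.9 FPKM at day, while CPT1A (ENSDARG00000059770) had 16.7 FPKM at night and 14.7 FPKM at day. In cholesterol synthesis HSD17B7 (ENSDARG00000088140, -2.04) and MSMO1 (ENSDARG00000055876, -1.11) were 2-fold lower, 10% of the 20 genes that passed against 2.62% of all genes. NSDHL (ENSDARG00000099315, 0.58) and PMVK (ENSDARG00000070798, 0.46) were above 0, and the median of the 20 genes was -0.13. Of the 20, 4 passed through 1 of the 2 libraries only. All 9 bile acid genes that passed were below 0, 2 of which passed through the day library only. Genes that the filter left out went both ways. CYP8B1 (ENSDARG00000053068) had 3.84 FPKM at night and 1.81 FPKM at day. Another gene with that symbol (ENSDARG00000097556) had 0.414 FPKM at night and 2.59 FPKM at day. CYP7A1 (ENSDARG00000069018), the first enzyme of bile acid synthesis, had 4.48 FPKM at night and 10.9 FPKM at day, a ratio of 0.41 (0.335 to 0.50). It was 1 of the genes that passed through the day library only. Of 22 genes of fatty acid synthesis, none had a 2-fold difference (against 3.4% of all genes) and the median was -0.22.

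Liver markers stood beside these metabolic genes. Of 38 listed liver genes 36 passed the filter, 29 of them below 0, 8 (22.2%, against 2.62% of all genes) at least 2-fold lower and none 2-fold higher, with a median of -0.31. The summed level was 1869 FPKM at night and 2635 FPKM at day, a ratio of 0.709, and none was at 0 in both pools. Of the 36 that passed, 1 did so through 1 of the 2 libraries only. The 3 fibrinogen chain genes FGB, FGG and fga differed by -1.07, -1.05 and -1.05, and fetub (ENSDARG00000053973), a secreted liver protein, had 64.2 FPKM at night and 167 FPKM at day. The transferrin gene tfa (ENSDARG00000016771) had 312 FPKM at night and 335 FPKM at day, and the complement gene c9 (ENSDARG00000016319) had 60.6 FPKM at night and 45.0 FPKM at day. The liver genes thus did not share 1 ratio. The yolk protein genes, made in the liver of females, showed this too. vtg1 (ENSDARG00000092233) had 2010 FPKM at night and 2505 FPKM at day, while vtg6 (ENSDARG00000016825) had 849 FPKM at night and 584 FPKM at day. These genes are near copies of each other, so reads may have been divided among them and single values are uncertain. The list of yolk protein genes, which also holds ESR1, summed to 6843 FPKM at night and 6739 FPKM at day, a ratio of 1.02. RBP4, the lowest of the liver list at -1.77, was 2-fold lower at night in the eye and the pineal gland too. Of the listed liver genes that reached 5 FPKM there, 3 of 3 in the eye and 1 of 2 in the pineal gland were 2-fold lower. The shares of all genes compared there were 5.36% and 2.96%. These are few genes, and RBP4 was counted in both tissues. Markers of kidney, pancreas and skeletal muscle had lower medians than those of liver, at -0.86, -0.70 and -0.59. The part of the share of liver or of any other organ in the metabolic genes was not tested.

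**Figure D4:**
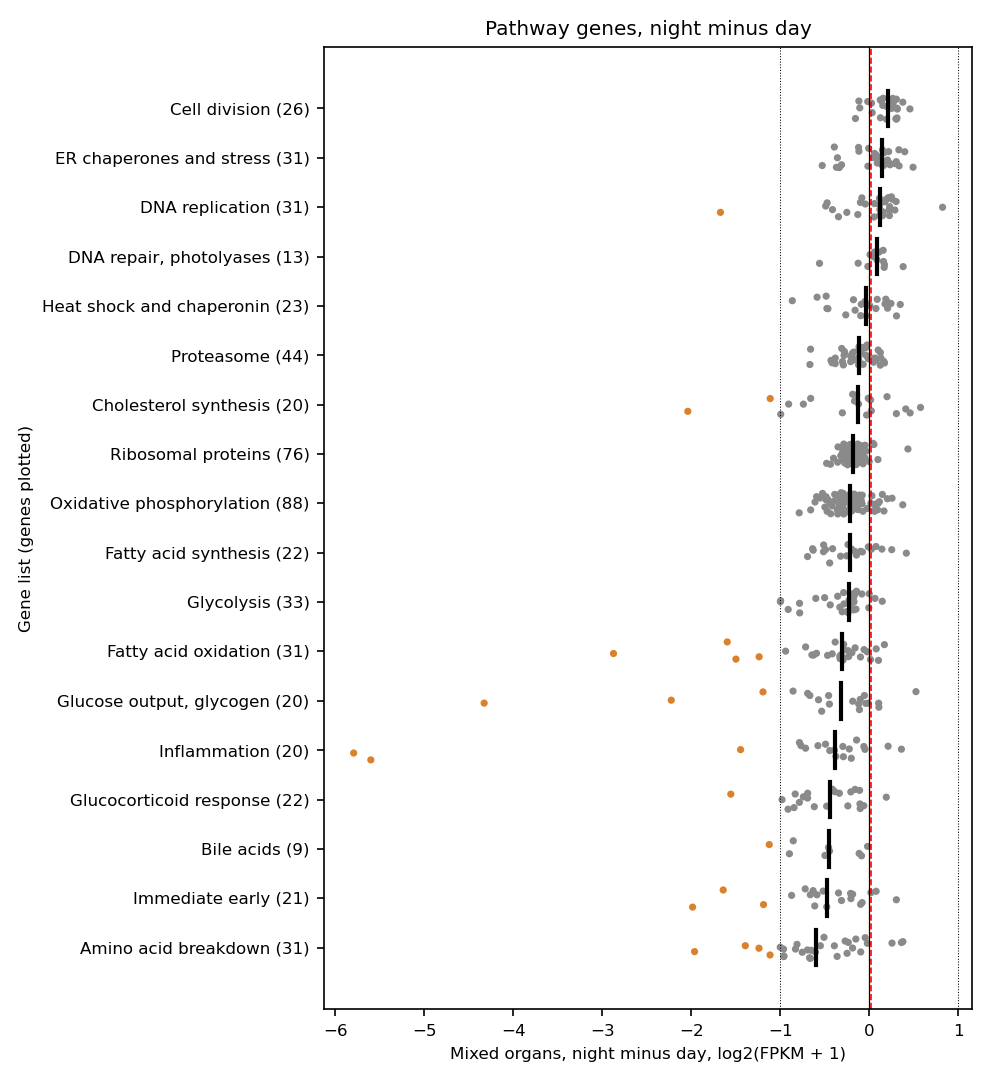
Night minus day on log2(FPKM + 1) in mixed organs for genes of 18 pathway lists, each point a gene that passed the filter (number in brackets). Orange points are at least 2-fold lower at night, black bars are list medians, and the red dashed line is the median of all genes, 0.03. Amino acid breakdown has the lowest median, -0.60, and cell division the highest, 0.21.

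Genes that answer glucocorticoids, the hormones of stress and of the daily cycle, were nearly all below 0. Of 22 that passed the filter, 21 were below 0, with a median of -0.44, while 53.9% of all genes compared were above 0. This was not particular to the list. Below 0 were also 30 of 33 glycolysis genes and 70 of 76 ribosomal protein genes, while 22 of 26 cell division genes were above 0. Of the 22 genes, only FKBP5 was 2-fold lower (4.55%, against 2.62% of all genes). FKBP5 (ENSDARG00000028396), a partner of the receptor, had 57.2 FPKM at night and 170 FPKM at day, a ratio of 0.337 (0.323 to 0.351). tsc22d3 (ENSDARG00000075666) had 91.5 FPKM at night and 164 FPKM at day, and HSD11B2 (ENSDARG00000001975), which inactivates cortisol, had 73.0 FPKM at night and 126 FPKM at day. The receptor gene NR3C1 (ENSDARG00000025032) was the 1 gene above 0, with 23.8 FPKM at night and 20.7 FPKM at day. In the eye the median of this list was -1.0, and in the pineal gland -0.13.

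Immediate early genes, which cells switch on within minutes of a stimulus, were also mostly below 0 in mixed organs, 18 of 21, with a median of -0.48. FOSB (ENSDARG00000055751), NR4A3 (ENSDARG00000055854) and JUNB (ENSDARG00000104773) were at least 2-fold lower, 14.3% of the 21 against 2.62% of all genes. Of these, FOSB and NR4A3 passed the filter through the day library only. FOSB had 1.94 FPKM at night and 10.6 FPKM at day. FOS (ENSDARG00000031683) had 46.9 FPKM at night and 74.6 FPKM at day, and BTG2 (ENSDARG00000020298) was the highest of the list with 166 FPKM at night and 134 FPKM at day. The pineal gland had a list median of 0.69 and the eye of -0.68.

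Of 20 inflammation genes that passed, 18 were below 0 with a median of -0.38. Those 2-fold lower (15%, against 2.62% of all genes) were just NOS2, irg1l and ccl20a.3. The last of these had 1.89 FPKM at night and 6.85 FPKM at day. Of the 20, 4 passed through 1 of the 2 libraries only. NOS2, irg1l and ccl20a.3 were among them, each through the day library. MMP9 (ENSDARG00000042816) had 17.3 FPKM at night and 30.1 FPKM at day, and SOCS1 (ENSDARG00000038095), an inhibitor of cytokine signals, had 65.5 FPKM at night and 50.7 FPKM at day. Of 12 interferon genes RSAD2 (ENSDARG00000004952) was the 1 with a 2-fold difference, lower at night (8.33%, against 2.62% of all genes). It had 3.55 FPKM at night and 9.06 FPKM at day, and so passed through the day library only. Of 21 markers of myeloid cells that passed, 2 (9.52%, against 2.62% of all genes) were at least 2-fold lower and none 2-fold higher. The 21 ran from -1.8 to 0.44, with a median of -0.09. SPI1 (ENSDARG00000000767), a regulator of these cells, was the highest with 17.8 FPKM at night and 12.8 FPKM at day. The 2 lower ones were mfap4 genes. Genes of this family mark macrophages in zebrafish and went both ways. mfap4.4 (ENSDARG00000038682) had 65.2 FPKM at night and 7.62 FPKM at day. It was not on the list, so the count of 2-fold higher markers leaves it out. The MFAP4 genes ENSDARG00000038681 and ENSDARG00000038683, which were on it, had 5.54 and 6.24 FPKM at night and 21.7 and 18.1 FPKM at day. These are related copies, so the split of reads among them is uncertain.

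Markers of the 8 pooled organs were present in both mixed libraries, which is what the labels state. MYL7 (ENSDARG00000019096) of heart had 618 FPKM at night and 586 FPKM at day, zp3a.1 (ENSDARG00000042129) of the egg coat had 982 FPKM at night and 920 FPKM at day, and mbpa (ENSDARG00000036186) of myelin had 204 FPKM at night and 258 FPKM at day. Markers of the exocrine pancreas were present too, although the pancreas is not among the organs named. In zebrafish it lies scattered along the intestine. The 28 pancreas genes summed to 870 FPKM at night and 1374 FPKM at day. None of 32 photoreceptor and pineal genes, 21 lens genes or 13 pituitary genes reached 5 FPKM, and these lists summed to 15.3, 3.27 and 2.32 FPKM at night and 18.2, 4.08 and 1.32 FPKM at day.

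The organ lists did not move alike. Kidney had the lowest median (-0.86), then pancreas (-0.70), skeletal muscle (-0.59), liver (-0.31), gill (-0.20), brain (-0.07), intestine (0.02, or just below 0 after rescaling by the median or trimmed mean ratio), heart (0.05) and oocyte (0.17). Heart markers summed to 3136 FPKM at night and 3167 FPKM at day. Oocyte markers summed to 7360 FPKM at night and 6691 FPKM at day. The sums of both lists were thus nearly level between the pools. Single heart genes ran from -1.31 to 0.75, and 1 of the 18 that passed (5.56%, against 2.62% of all genes) was 2-fold lower. Of 19 gill genes that passed, 3 (15.8%, against 2.62%) were 2-fold lower. Of 36 brain genes that passed, 1 (2.78%, against 0.781%) was 2-fold higher. Skeletal muscle markers summed to 2618 FPKM at night and 3901 FPKM at day. Within muscle 31 of the 34 genes that passed were below 0, but the sizes spread widely, from -2.58 to 0.64. Of the 34, 5 (14.7%, against 2.62% of all genes) were at least 2-fold lower, none was 2-fold higher, and 6 passed through 1 of the 2 libraries only. atp2a1 (ENSDARG00000020574), the calcium pump of fast fibres, had 7.93 FPKM at night and 51.9 FPKM at day, and MYBPC2 (ENSDARG00000030157) had 2.85 FPKM at night and 22.1 FPKM at day. ckma (ENSDARG00000035327), the creatine kinase, had 317 FPKM at night and 517 FPKM at day, and myha (ENSDARG00000095930), a myosin heavy chain gene, had 58.4 FPKM at night and 45.0 FPKM at day. In the pancreas list 19 of the 20 genes that passed were below 0, and 4 of the 20 passed through 1 of the 2 libraries only. Of the 20, 5 (25%, against 2.62% of all genes) were at least 2-fold lower. The elastase cela1.3 (ENSDARG00000043173) was the lowest with 1.22 FPKM at night and 16.9 FPKM at day, and prss1 (ENSDARG00000042993), a trypsin gene, had 150 FPKM at night and 237 FPKM at day. In the gill list the sodium pump gene atp1a1a.5 (ENSDARG00000040252) had 10.1 FPKM at night and 33.2 FPKM at day, and the ammonia channel gene RHCG (ENSDARG00000003203) had 26.9 FPKM at night and 77.2 FPKM at day, while the ionocyte regulator foxi3a (ENSDARG00000055926) had 6.14 FPKM at night and 6.48 FPKM at day.

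Among the organ lists, that of the intestine alone had members 2-fold different in both directions. Of the 31 that passed the filter, 3 (9.68%, against 0.781% of all genes) were 2-fold higher and 4 (12.9%, against 2.62%) 2-fold lower. Of the 31, 3 passed through 1 of the 2 libraries only. Higher at night were mep1a.2 (ENSDARG00000008029, 1.8) and mep1a.1 (ENSDARG00000029747, 1.27), meprins of the brush border, and the peptide carrier SLC15A1 (ENSDARG00000100315, 1.51). Lower were the chitinase chia.2 (ENSDARG00000099185, -2.10), the lipid carriers apoa4b.2 (ENSDARG00000020866, -1.96) and apoa4b.3 (ENSDARG00000094929, -1.91), and apoc2 (ENSDARG00000092155, -1.08). SLC15A1 (ENSDARG00000044528), of the same symbol, had 84.6 FPKM at night and 42.6 FPKM at day. The chitinase copies did not move together, since chia.1 (ENSDARG00000100635) had 453 FPKM at night and 319 FPKM at day and chia.2 had 61.1 FPKM at night and 266 FPKM at day. The copies of meprin, chitinase and apolipoprotein genes are related in sequence, so their single values are uncertain. The summed level of the 40 genes was 1868 FPKM at night and 1981 FPKM at day.

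**Figure D5:**
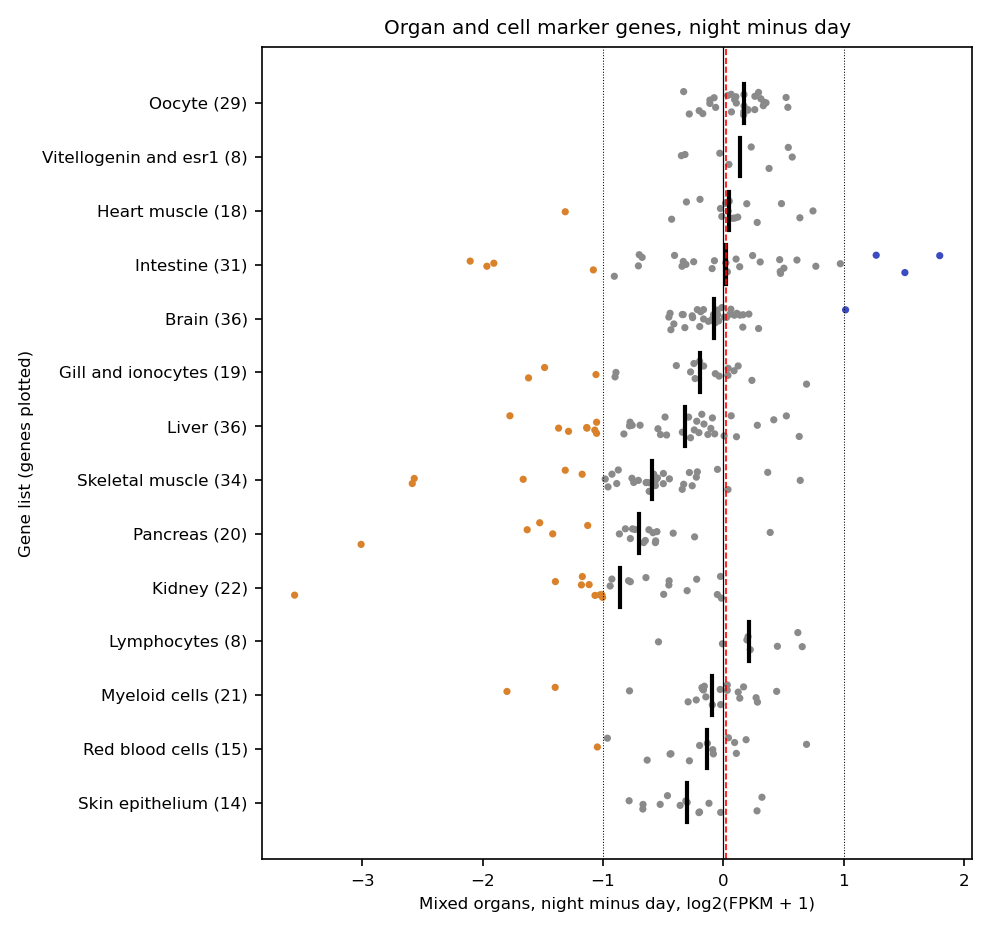
Night minus day on log2(FPKM + 1) in mixed organs for organ and cell markers, each point a gene that passed the filter (number in brackets). Blue points are at least 2-fold higher at night, orange points at least 2-fold lower, black bars are list medians, and the red dashed line is the median of all genes. Kidney, pancreas and skeletal muscle lie to the left and oocyte markers slightly to the right.

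Genes of cell division, which the ovary also expresses for egg maturation, were slightly above 0. Of 26 that passed, 22 were above 0, none had a 2-fold difference (against 3.4% of all genes) and the median was 0.21. CCNB1 (ENSDARG00000051923), a mitotic cyclin, had 261 FPKM at night and 189 FPKM at day, and CDK1 (ENSDARG00000087554), its kinase, had 70.4 FPKM at night and 53.9 FPKM at day. The oocyte markers beside them had a median of 0.17, and their part in this was not tested. Of 31 DNA replication genes, 21 were above 0 with a median of 0.12. The genes for the small subunit of ribonucleotide reductase went apart. RRM2 (ENSDARG00000020711) had 164 FPKM at night and 92.2 FPKM at day, and the other RRM2 (ENSDARG00000078069) had 20.3 FPKM at night and 66.9 FPKM at day. Of 13 genes of DNA repair and photolyases, 10 were above 0 and none had a 2-fold difference (against 3.4% of all genes). cry5 (ENSDARG00000019498), the photolyase that light switches on in zebrafish, had 3.10 FPKM at night and 5.04 FPKM at day.

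Large housekeeping families shifted little. Of 76 ribosomal protein genes 70 were below 0 with a median of -0.18, of 88 genes of oxidative phosphorylation 74 were below 0 with a median of -0.21, and of 44 proteasome genes 34 were below 0 with a median of -0.12. No gene of these 3 families had a 2-fold difference, against 3.4% of all genes. Of 31 genes of the endoplasmic reticulum and its stress response 21 were above 0, with a median of 0.14, and of 23 heat shock genes 10 were above 0, with a median of -0.03.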

How the data were processed

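Poly-A RNA was sequenced from 6 pooled libraries, 1 for each tissue and time point. The submitters' processing notes name FastQC, STAR 2.3.0e, featureCounts of Subread and DESeq2, and the build danRer10. An annotation release was not given in the sources used here. FPKM values for 32105 genes were deposited by the authors, and their 3 columns of means were not used. Symbols came from a table that matched 26269 gene IDs, many of them written as human symbols.

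Differences were taken on log2(FPKM + 1) wherever the higher library reached 5 FPKM, and 2-fold or more was counted by size. Values of a gene are whole multiples of what 1 read is worth, which gave back its reads, for 27233 of 27233 genes above 0 within 0.02 read, and on simulated data for 99.1% of genes. They could be reads or fragments. Ratios carry 95% exact (Clopper-Pearson) intervals from these reads, for counting error only. The 44 gene lists and the members were chosen with earlier results of these data known. Named were the 20 highest and 20 lowest genes with a symbol that is no clone name, all clock genes, up to 5 members of each other list in either direction, and genes shared with or opposite to the other tissues; further list members are named as contrasts, chosen after their values were seen. Lists are described by counts and medians and not tested. Python 3.11.15, pandas 2.3.3 and scipy 1.17.1 were used.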

Additional observations from a re-analysis of the deposited data

Results flagged for a closer look

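Some genes with a 2-fold difference in mixed organs had the opposite direction, by at least 2-fold, in the eye or the pineal gland. Among genes lower in mixed organs, 10 of 139 that reached 5 FPKM in the eye were 2-fold higher there. In the pineal gland it was 10 of 112. The shares of all genes compared in both tissues were 3.67% and 1.66%. Among genes higher in mixed organs, 1 of 23 was 2-fold lower in the eye and 1 of 22 in the pineal gland. The shares of all genes compared were 4.36% and 2.61%. Only some of the lower genes are named below. With 1 library at each time point the difference between tissues was not tested. Values are night minus day on log2(FPKM + 1). Higher at night in mixed organs were rabgap1l2, at 1.38 against -0.63 in the eye and -1.29 in the pineal gland, and id2b, at 1.02 against -1.76 in the eye and 1.51 in the pineal gland. Lower at night in mixed organs was DDC, at -4.96 against 1.51 in the eye and 1.06 in the pineal gland. NR4A3 had -1.64 in mixed organs, 0.96 in the eye and 4.08 in the pineal gland. CSDC2 had -1.58 in mixed organs, -0.12 in the eye and 2.67 in the pineal gland. ADGRB1 had -1.45 in mixed organs, 3.34 in the eye and 0.86 in the pineal gland. PNP had -1.43 in mixed organs, -2.62 in the eye and 1.42 in the pineal gland. RAP1GAP had -1.69 in mixed organs, 0.24 in the eye and 1.31 in the pineal gland.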

How the results depend on the processing

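No paired analysis was possible because each tissue and time point had 1 library and the labels give no replicate numbers. The count of genes 2-fold higher and lower at night, 102 and 342, was 170 and 526 with a filter of 1 FPKM and also with no filter. It lay between 69 and 147 higher and 239 and 427 lower with a pseudocount of 0.1 FPKM, a filter of 10 FPKM, a filter of 5 FPKM on the mean of both libraries, at least 50 reads, and rescaling by a median or trimmed mean ratio. Without the organ and blood marker lists it was 98 and 305. This took out the listed markers only and left in other genes of the same organs, so it does not show the part of organ shares. Taking 1.5-fold as shared in the other tissue gave 62.6% of the lower genes in the eye and 39.3% in the pineal gland, against 10.05% and 9.98% of all genes at that fold, and 60.9% and 59.09% of the higher genes, against 9.72% and 5.55%. The share of calls that were higher stayed between 20.9% and 25.6% in all these settings. Rescaling shifted all differences by 0.03, and it changed the sign of 2 of 41 list medians, those of intestine and cell cycle inhibitors. A filter of 1 FPKM, and also no filter, changed it for 2, intestine and the D-box list, and a filter of 10 FPKM for 3, cell cycle inhibitors (-0.13), steroid genes (0.13) and lymphocytes (-0.01). With the other pseudocount or rescaling, 46 of 1212 values of the 404 genes named by rule moved past the counting interval. Among those of the 404 genes that were 2-fold different, none changed sign, but none could have. The shift of 0.03 is far below a 2-fold difference, and a pseudocount does not change which library is higher. Depth limits genes with few reads only, and the absence of replicates limits every difference.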
